A study of Homo sapiens with 6 samples.

Results

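The genes described here encode the proteins of the mitochondrial ribosome, and were taken as every gene whose symbol in the platform annotation was MRPL or MRPS followed by a number. There were 75 such genes, 48 of the large subunit (MRPL) and 27 of the small subunit (MRPS), among 19775 genes named on the array. They were read on 140 probe sets, and each gene was represented by the probe set with the highest mean log2 signal over the 6 arrays. All 75 passed the filter on low values, which kept 13781 genes, so that none dropped out. MRPL53 and MRPS24 were present only on probe sets that carry several symbols and were not used.

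RNA came from Hep3B, a human hepatocellular carcinoma line. The control group, pU6-2, was clone 2 carrying the control plasmid pU6, and the other group, D20, was a clone carrying the plasmid siSDHB, made to silence SDHB. SDHB is the iron-sulfur protein of complex II of the respiratory chain, succinate dehydrogenase. Both clones were kept under the selection drug G418 and harvested near confluence, and RNA of each was hybridised to 3 arrays (A, B and C) of the Affymetrix HG-U133 Plus 2.0 type. Each group was a single clone, so the silencing and differences between clones cannot be told apart, and the level of the targeted gene is not analysed here. The labels do not tell whether the 3 arrays of a clone hold RNA of separate cultures, so a p-value reflects array-to-array spread only, which may be technical.

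The mitochondrial ribosome translates the few messages of mitochondrial DNA, which encode core subunits of respiratory complexes I, III and IV and of ATP synthase. Complex II has no subunit made there. The ribosomal RNAs of this ribosome are transcribed from mitochondrial DNA, whereas all of its proteins are encoded in the nucleus, made in the cytosol and imported. The small subunit binds the message and decodes it, and the large subunit joins the amino acids and releases the chain through an exit tunnel at the inner membrane. Many of the proteins descend from bacterial ribosomal proteins, and others have no bacterial relative.

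Signals are MAS5 values on a linear scale, and differences are log2(signal + 16) of D20 minus pU6-2, which understates the change of dim genes. Over the 32768 probe sets that passed the filter on low values, log2 values correlated more closely within a clone than across the clones. Pearson's r was 0.964 to 0.967 in pU6-2, 0.953 to 0.962 in D20 and 0.880 to 0.890 across the clones, and no array stood apart. The 3′ to 5′ signal ratio of GAPDH, a measure of RNA integrity, ran from 1.08 to 1.25 over the 6 arrays and overlapped between the clones. ALB, a defining hepatocyte marker, was among the brightest genes in both clones, with 42254, 44712 and 44067 in pU6-2 and 39570.2, 44921 and 47313 in D20. The other 5 hepatocyte markers tested were lower in D20, and the summed signal of the 6 went from 155367 to 160085 in pU6-2 and from 79989 to 91104 in D20. Markers of other cell types were dim, with summed signals of 444 to 620 in pU6-2 and 192 to 437 in D20 for 5 fibroblast genes, and 102 to 172 and 244 to 324 for 4 endothelial genes. The 5 blood markers summed to 3923 to 5254 in pU6-2 and 166 to 251 in D20. LYZ made up nearly all of the sum in pU6-2 and little of it in D20, with 5003, 3628 and 4365 in pU6-2 and 6, 23.7 and 5.7 in D20. The part of these marker differences in the results that follow was not tested, and in bulk RNA fewer cells of a type and less RNA per cell cannot be told apart.

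Most genes of the mitochondrial ribosome had a lower signal in the D20 clone, and the change was small for nearly all of them. Each gene was called by limma at a Benjamini-Hochberg adjusted p of 0.05, the adjustment covering all 32768 tested probe sets. By this rule 39 of the 75 genes fell, 2 rose and 34 did not pass. Over all 13781 genes tested, 44.5% were called in either direction, 20.8% lower and 23.7% higher. The median difference of the ribosomal genes was -0.29 (quartiles -0.56 and -0.09), against 0.04 for all genes (quartiles -0.39 and 0.50). Of the 75, 62 had a negative difference, where 6533 of all 13781 genes did. At least 2-fold lower were 4 of the 75 and 906 of the 13781, so such falls were no more frequent among the members. At least 2-fold higher were 0 of the 75 and 1482 of the 13781. The 3 arrays of D20 lay entirely below those of pU6-2 for 50 of the 75 genes and entirely above for 4, where 25.3% and 28.8% of all genes did so. The ribosomal genes were bright, their mean signals ranking at a median percentile of 90.6 among the probe sets tested. Of the 1962 other genes with mean signals between 1720 and 3996, the members' own quartiles, 642 were lower (32.7%) and 530 higher, with a median of -0.04. Of the 39 falls, 32 were called whichever 1 of the 6 arrays was left out, and 7 lost the call without some array (MRPL46, MRPL52, MRPS16, MRPS18C, MRPS21, MRPS22 and MRPS27), all with differences of -0.37 or smaller in size. The standard errors of the members' differences ran from 0.0712 to 0.205, with a median of 0.0991.

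**Figure D1:**
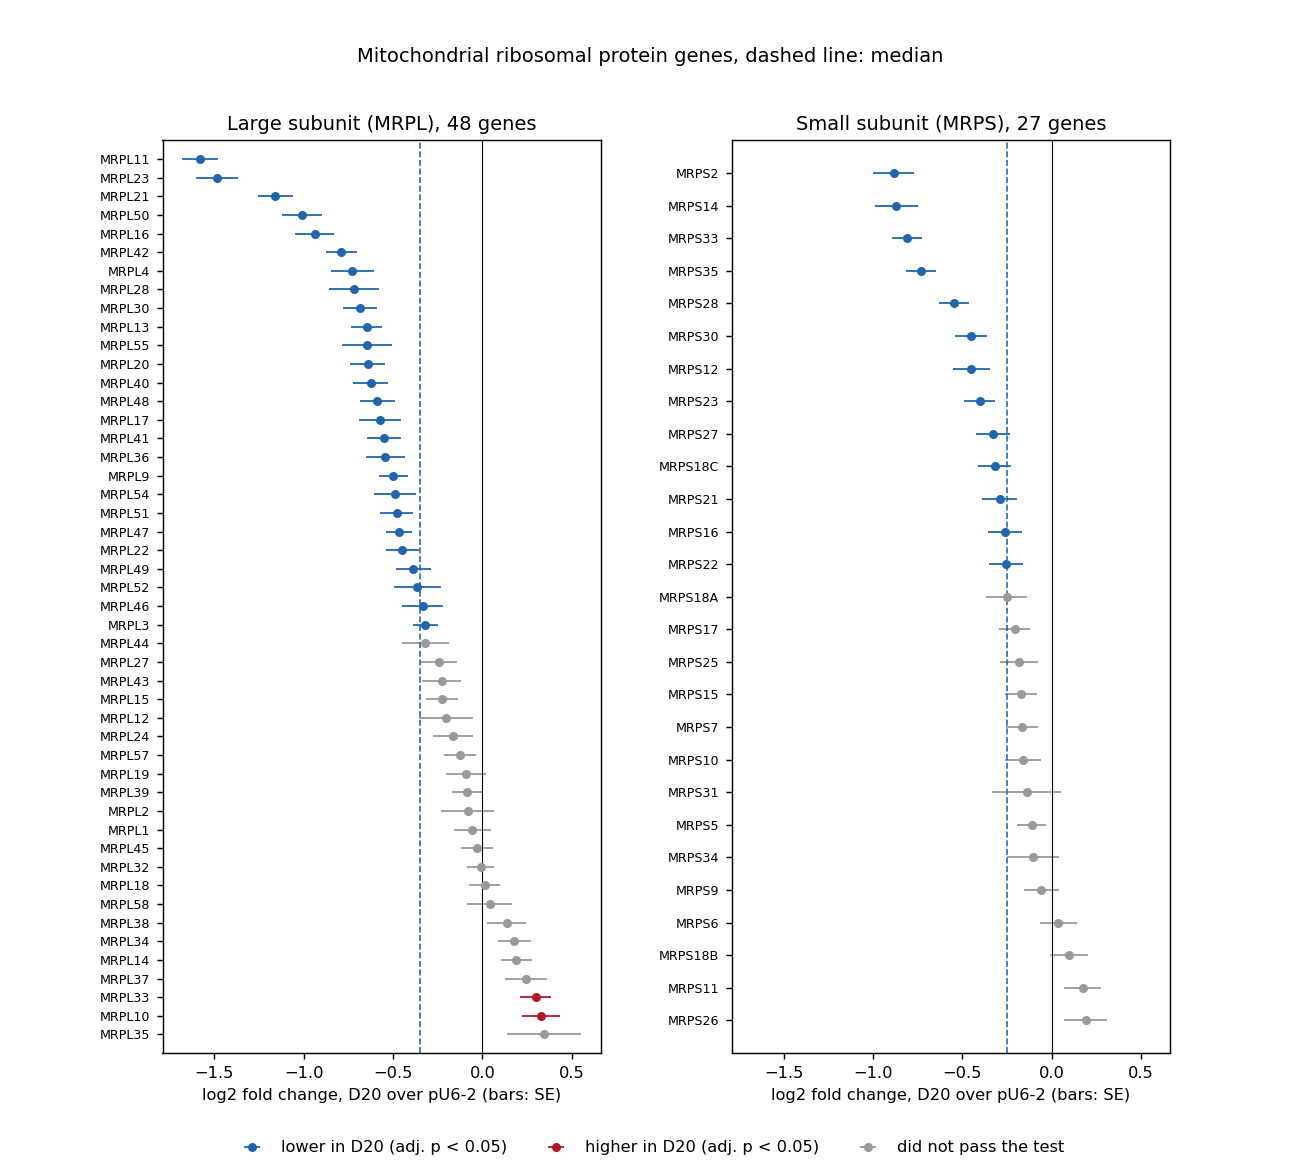
Log2 fold change of D20 over pU6-2 (x axis) for each of the 48 large-subunit genes (left) and 27 small-subunit genes (right), ordered by size, with the standard error from limma as bars and the median of each subunit as a dashed line. Blue genes were lower and red genes higher at the threshold of 0.05, and grey genes did not pass. The largest falls, down to -1.58, were in the large subunit, and only MRPL33 and MRPL10 rose.

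As 39 of the 75 members fell, their promoters were read from RefSeq, on assembly GRCh38.p14, as the window from 250 bases before to 50 bases after the start of each gene. A window was matched for 67 of the 75 genes, and not for MRPL2, MRPL10, MRPL13, MRPL15, MRPL21, MRPL23, MRPL35 and MRPS28. Each window was searched on both strands for 5 short motifs known from promoters of genes for mitochondrial proteins and housekeeping genes: CCGGAAG of the ETS family, to which GABPA belongs, GCGCATGCG of NRF1, AAGATGGCG of YY1, the E-box CACGTG and the CCAAT box. None of the motifs holds another. The 6 windows printed here cover the gene with the largest fall, which held no motif, 3 of the genes that fell with the ETS motif or the YY1 motif in a single copy (MRPL16, MRPS33 and MRPL46), 1 gene that rose (MRPL33), and MRPS12, whose window overlaps that of a neighbour on the other strand. They read 5′ to 3′ along the strand of the gene, and capitals mark the matches on either strand.
MRPL11 (chr11:66438799-66439098, minus strand): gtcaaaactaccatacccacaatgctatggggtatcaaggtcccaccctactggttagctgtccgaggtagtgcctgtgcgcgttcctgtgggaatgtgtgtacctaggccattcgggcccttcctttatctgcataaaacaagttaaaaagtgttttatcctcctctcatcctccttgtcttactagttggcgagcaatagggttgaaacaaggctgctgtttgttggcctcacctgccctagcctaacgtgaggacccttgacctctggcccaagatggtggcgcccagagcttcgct
MRPL16 (chr11:59810729-59811028, minus strand): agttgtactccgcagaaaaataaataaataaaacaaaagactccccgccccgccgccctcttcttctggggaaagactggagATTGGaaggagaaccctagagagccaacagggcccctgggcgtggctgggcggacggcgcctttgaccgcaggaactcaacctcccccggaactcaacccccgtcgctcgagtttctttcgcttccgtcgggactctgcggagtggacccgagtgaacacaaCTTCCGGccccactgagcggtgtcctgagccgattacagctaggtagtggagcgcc
MRPS33 (chr7:141014903-141015202, minus strand): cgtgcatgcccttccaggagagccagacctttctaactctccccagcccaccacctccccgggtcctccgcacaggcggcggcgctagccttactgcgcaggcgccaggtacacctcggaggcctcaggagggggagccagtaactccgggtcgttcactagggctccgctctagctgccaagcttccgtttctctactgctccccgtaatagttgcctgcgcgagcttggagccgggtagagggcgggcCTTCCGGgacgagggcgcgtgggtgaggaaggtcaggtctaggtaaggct
MRPL46 (chr15:88467339-88467638, minus strand): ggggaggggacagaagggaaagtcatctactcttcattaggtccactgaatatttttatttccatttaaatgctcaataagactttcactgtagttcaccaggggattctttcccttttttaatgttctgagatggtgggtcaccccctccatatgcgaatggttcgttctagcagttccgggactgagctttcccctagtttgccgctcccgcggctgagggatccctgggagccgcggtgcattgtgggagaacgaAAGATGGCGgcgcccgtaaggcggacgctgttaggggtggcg
MRPL33 (chr2:27771469-27771768, plus strand): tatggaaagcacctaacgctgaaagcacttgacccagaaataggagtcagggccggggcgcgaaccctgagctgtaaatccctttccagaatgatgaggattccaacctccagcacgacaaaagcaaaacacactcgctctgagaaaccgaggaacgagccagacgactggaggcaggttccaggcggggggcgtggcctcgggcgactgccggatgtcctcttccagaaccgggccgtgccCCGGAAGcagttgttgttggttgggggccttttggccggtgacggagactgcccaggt
MRPS12 (chr19:38930694-38930993, plus strand): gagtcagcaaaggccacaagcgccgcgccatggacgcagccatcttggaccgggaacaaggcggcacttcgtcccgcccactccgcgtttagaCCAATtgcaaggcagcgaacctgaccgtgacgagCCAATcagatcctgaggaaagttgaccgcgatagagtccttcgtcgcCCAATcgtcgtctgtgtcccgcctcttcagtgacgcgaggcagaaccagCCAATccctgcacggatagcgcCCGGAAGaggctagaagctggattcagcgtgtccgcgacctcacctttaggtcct

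The ETS motif was found in 28 of the 67 windows, or 41.8%, and in 10.7% of the 27305 promoter windows of all RefSeq genes, or 14.2% of the 15842 windows of protein-coding genes. The YY1 motif was in 12 windows, or 17.9%, against 1.85% of all windows and 2.74% of the coding ones. The other motifs lay nearer to the shares over all windows: NRF1 was in 3 of 67 (4.48%, against 2.10%), the E-box in 6 (8.96%, against 7.43%) and the CCAAT box in 20 (29.9%, against 35.7%). The windows of the members had a median GC content of 60.3%. The windows they were set against were not matched to them in GC content or in signal, so the part of either in these shares was not tested. Set against the array data, the ETS motif was in 18 of the 35 windows of genes that fell and in 10 of the 32 others, and the YY1 motif was in 7 of 35 and 5 of 32. The same split was 3 and 0 for NRF1, 4 and 2 for the E-box, and 10 and 10 for the CCAAT box. MRPL33, which rose, carried the same ETS letters as MRPL16 and MRPS33, which fell, and MRPL11 carried none of the 5 motifs. A match is a description of the letters only.

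In the large subunit 26 of 48 genes fell and 2 rose, with a median difference of -0.35 and quartiles of -0.63 and -0.08. The largest fall was that of MRPL11, a protein at the base of the stalk where translation factors bind. Its signals were 5569.7, 5541 and 5257 on the control arrays A, B and C, and 1841, 2024 and 1607.5 on the D20 arrays. No array of D20 came near the control arrays, and the level was 2.99-fold lower (log2 difference -1.58, SE 0.0994, limma adjusted p = 8.72e-08). The only probe set of MRPL11 is marked as able to match several transcripts. MRPL23, a protein at the rim of the exit tunnel, gave 6421.5, 7399.5 and 6422.5 in pU6-2 and 1983, 2766 and 2509 in D20. Its groups were far apart too (-1.48, SE 0.119, limma adjusted p = 7.38e-07), but this probe set can match several transcripts, and the gene's other probe set gave -0.79 and did not pass. MRPL21, which has a bacterial relative, read 5779, 5822 and 5849 in the controls and 2417.5, 3010.1 and 2411 in D20. The controls of MRPL21 hardly differed from each other, and all D20 arrays were lower (-1.16, SE 0.0991, limma adjusted p = 1.35e-06).

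MRPL50, a protein with no bacterial relative, had signals of 3437, 2671 and 2883 in pU6-2 and 1590.1, 1378 and 1461 in D20. The groups did not overlap (-1.01, SE 0.113, limma adjusted p = 1.50e-05), and all 3 of its probe sets fell. MRPL16, which lies near the site where amino acids are joined, read 3133, 3629.7 and 3078 in pU6-2 and 1658.5, 1908 and 1551 in D20. Every D20 array of MRPL16 was below every control array (-0.94, SE 0.109, limma adjusted p = 1.96e-05). MRPL42, specific to mitochondria, was one of the brighter members, at 8799.9, 8654 and 8393.5 in pU6-2 and 4489, 5226 and 5263 in D20. It fell on all 3 of its probe sets, and the brightest gave -0.79 (SE 0.0857, limma adjusted p = 1.15e-05). The brightest gene of the large subunit, MRPL3, which reaches into the core of the subunit, had 12670.1, 12223 and 12545 in pU6-2 and 9928, 9888 and 10183 in D20. The arrays within each clone lay close together, so that this small difference of -0.32 (SE 0.0712) passed (limma adjusted p = 0.00336), though it did not pass without a variance trend or after scaling on the spike-in controls.

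Both genes that rose belong to the large subunit and have bacterial relatives. MRPL33 gave 2867, 2885 and 3152 in pU6-2 and 3670.3, 3713 and 3570.3 in D20. Its groups did not overlap, and the difference was 0.30 (SE 0.0857, limma adjusted p = 0.0152). MRPL10, the stalk protein that carries copies of MRPL12, read 3081, 3265 and 3367 in pU6-2 and 4349, 4464 and 3451 in D20. Arrays A and B of D20 were well above the controls of MRPL10 and array C only just (0.33, SE 0.106, limma adjusted p = 0.0286). These calls were not firm, as the 2 rises became 0 without control array A, 1 without control array B or C, 1 without D20 array A or B, and 3 without D20 array C.

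**Figure D2:**
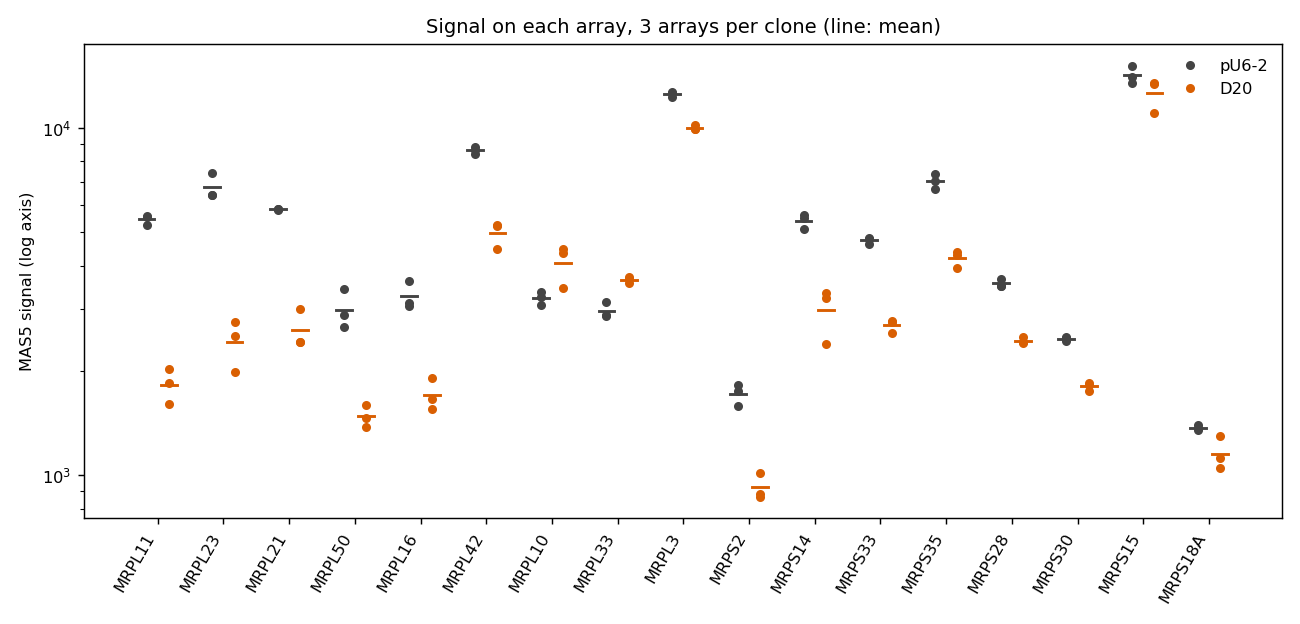
Signal on each array (y axis, log scale) for 17 genes of the mitochondrial ribosome, large subunit left and small subunit right, with pU6-2 in grey, D20 in orange and the mean of the 3 arrays of each clone as a line. For MRPL11, MRPL23 and MRPL21 the D20 arrays lie well below the controls, and for MRPL10 and MRPL33 they lie above.

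By place in the structure, the falls were not confined to one region. For comparison, 54.2% of all large-subunit genes and 20.8% of all genes tested were lower, and differences between regions were not tested. Around the exit tunnel 4 of 6 genes fell, with a median of -0.46. Besides MRPL23 these were MRPL17 (-0.57), MRPL47 (-0.47) and MRPL22 (-0.45), while MRPL24 (-0.16) and MRPL45 (-0.03), which is thought to tether the ribosome to the membrane, did not pass. In the central protuberance, the crest of the large subunit that faces the small one, 4 of 8 fell with a median of -0.29. The changed genes there were MRPL55 (-0.64), MRPL40 (-0.63), MRPL48 (-0.59) and MRPL46 (-0.33). Among the 5 measured stalk proteins 2 fell and 1 rose, with a median of -0.20. MRPL11 and MRPL54 (-0.49) were lower and MRPL10 higher, but the call of MRPL10 was lost in 7 of 18 alternative settings. MRPL1 (-0.06) did not pass. MRPL12, whose dimers sit on MRPL10, had 1318, 1320.0 and 1129.7 in pU6-2 and 868, 1337 and 1104 in D20, and these overlapped (-0.20, SE 0.151). Genes with a bacterial relative and genes without were called lower at close shares in the large subunit, 16 of 30 (median -0.38) and 10 of 18 (median -0.35).

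In the small subunit 13 of 27 genes fell and 0 rose, with a median difference of -0.25 and quartiles of -0.43 and -0.13. MRPS2, a protein of the back of the subunit with a bacterial relative, had signals of 1582.5, 1745 and 1818 in pU6-2 and 1017, 884 and 867 in D20. The groups of MRPS2 were well separated (-0.88, SE 0.115, limma adjusted p = 5.20e-05). MRPS14, also of bacterial descent, gave 5493, 5616 and 5110.5 in pU6-2 and 2379.6, 3334 and 3231 in D20. D20 array A was lowest and no array overlapped (-0.87, SE 0.12, limma adjusted p = 8.54e-05), but a further probe set of MRPS14 gave -0.22 and did not pass. For MRPS33, found only in mitochondria, the arrays read 4779, 4814 and 4621 in pU6-2 and 2561, 2766.5 and 2773 in D20. Here the spread within each clone was small beside the difference (-0.81, SE 0.0836, limma adjusted p = 7.27e-06).

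MRPS35, with no bacterial relative, had 6653, 7010.4 and 7346 in pU6-2 and 3945, 4386 and 4301 in D20, and all D20 arrays were lower (-0.73, SE 0.0833, limma adjusted p = 1.70e-05). MRPS28 gave 3674, 3512 and 3513 in pU6-2 and 2394, 2492.5 and 2411 in D20, with narrow groups that did not overlap (-0.55, SE 0.0846, limma adjusted p = 2.21e-04). MRPS12, which lines the decoding centre, read 3032, 3439 and 3323 in pU6-2 and 2368, 2694 and 2121 in D20 and was also lower (-0.45, SE 0.105, limma adjusted p = 0.00463). MRPS15 was the brightest gene of the small subunit and of all members, with 13995, 15096 and 13459.5 in pU6-2 and 11036.5, 13381 and 13437 in D20. D20 arrays B and C lay just below the lowest control and array A clearly below it, and the difference did not pass (-0.17, SE 0.0915, limma adjusted p = 0.167), although it did once arrays were centred on their medians. In the small subunit 7 of 17 genes with a bacterial relative fell (median -0.21), and 6 of 10 without one (median -0.29). The number of small-subunit genes that fell went from 13 to 8 when control array C was left out. The call of MRPS12 was lost without a variance trend, after spike-in scaling and with its probe sets averaged.

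MRPS30 and MRPS18A carry small-subunit names, but their proteins sit in the large subunit of the mammalian structure. MRPS30 had 2429.6, 2488 and 2492 in pU6-2 and 1815, 1842 and 1751 in D20 in tight groups and fell (-0.45, SE 0.0902, limma adjusted p = 0.00159), though not after spike-in scaling or when its probe sets were averaged. MRPS18A read 1391, 1352 and 1369 in pU6-2 and 1046, 1295 and 1119 in D20, and did not pass (-0.25, SE 0.114, limma adjusted p = 0.108). Without D20 array B, the highest of the 3, the difference of MRPS18A was -0.34 and passed (limma adjusted p = 0.0361), as it did after median centring. Counted by structure, 27 of 50 large-subunit genes fell with a median of -0.35, and 12 of 25 small-subunit genes with a median of -0.21.

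The large and the small subunit were then set side by side. By symbol, 54.2% of the large-subunit genes and 48.1% of the small-subunit genes were lower, with medians of -0.35 and -0.25. All 4 members at least 2-fold lower and both that rose were large-subunit genes. After each gene was centred on its mean over the 6 arrays, the median of the large-subunit genes was 0.14, 0.22 and 0.16 on control arrays A, B and C, and -0.22, -0.06 and -0.24 on the D20 arrays. The same values for the small subunit were 0.11, 0.14 and 0.15 in pU6-2 and -0.17, -0.06 and -0.16 in D20. In both subunits every control array was above every D20 array, and D20 array B was the nearest to the controls. Of the large-subunit genes, 7 lie on chromosome 11 (MRPL11, MRPL16, MRPL17, MRPL21, MRPL23, MRPL48 and MRPL49), and all 7 were lower, with a median of -0.94. No small-subunit gene lies there. Without these 7, which were picked after their values were seen and whose removal moves the large subunit by construction, 19 of 41 large-subunit genes were lower (46.3%) with a median of -0.24, against 13 of 27 (48.1%) and -0.25 in the small subunit.

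Other genes of chromosome 11 were also lower at a share above that of all genes. Of 791 other tested genes there, 37.2% were lower, with a median of -0.26. Such shares were also seen on chromosome 12, where 40.6% of 729 other genes were lower (median -0.28) and all 3 members fell, and on chromosome 9, with 37.7% of 557 other genes (median -0.29) and again 3 of 3 members. Chromosome 7 had 29.9% of 642 other genes lower (median -0.12), and 1 of its 3 members fell. Chromosome 22 had 28.8% of 337 (median -0.11), and its 1 member fell, and chromosome 1 had 22.2% of 1356 (median 0.03), and 5 of its 8 members fell. On each of the other chromosomes that hold members, at most 19.1% of the other genes were lower. With the members of chromosomes 9, 11 and 12 all left out, again a choice made after their values were seen, 26 of the remaining 62 were lower (41.9%), with a median of -0.22, and 2 higher. That left 15 of 37 large-subunit genes (40.5%, median -0.23) and 11 of 25 small-subunit genes (44%, median -0.21). Beside these shares stand 20.8% of all genes and the 32.7% of other genes of like signal, and the differences were not tested.

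Position was also looked at more closely, through the 10 nearest tested genes on each side of a member in the RefSeq gene order, members left out (for MRPL41 16 genes in all). Across the 75 members the difference of the gene and the median of its neighbours correlated at Pearson's r of 0.56 and Spearman's rho of 0.53, a description over genes that share arrays and, in part, neighbours. Of 8 members whose neighbours had a median below -0.3, all 8 fell, with a median of -0.90. Of 58 with neighbours between -0.3 and 0.3, 29 fell and 2 rose (median -0.26), and of 9 with neighbours above 0.3, 2 fell (median -0.21). Of the 75 members, 64 lay below the median of the genes around them, and the median of these differences over all 75 was -0.34, close to the members' own median beside that of all genes. MRPL23 fell by 1.48 on the log2 scale among neighbours with a median of -0.08, while MRPL49 fell by 0.39 among neighbours at -0.99. MRPL3 was lower although its neighbours had the highest median, 0.46.

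**Figure D3:**
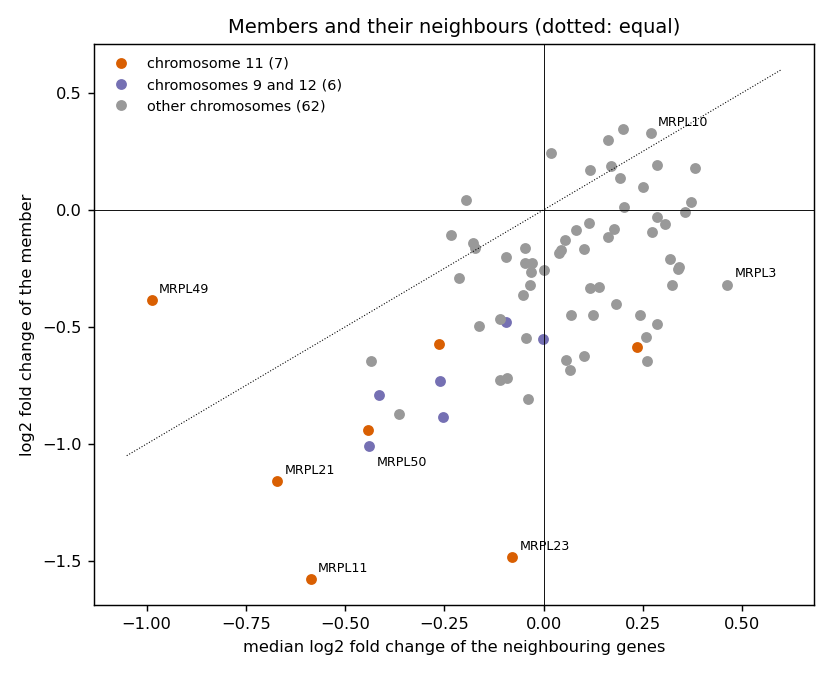
Log2 fold change of each of the 75 members (y axis) against the median log2 fold change of its neighbouring genes (x axis, 20 genes for each member but MRPL41, which had 16), with members on chromosome 11 in orange, on chromosomes 9 and 12 in purple and elsewhere in grey. The dotted line marks equal values, and 64 of the 75 points lie below it, MRPL49 being the labelled gene farthest above it.

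Some members share a promoter region with a gene on the opposite strand, and for 12 of them the partner was tested. Where the member fell, in 7 cases, 3 partners were lower, 0 were higher and 4 did not pass, with a median of -0.21. Where the member did not fall, in 5 cases, 2 partners were lower and 0 higher, with a median of -0.39. Of all genes tested, 20.8% were lower and 23.7% higher. MRPS12 and SARS2, which charges mitochondrial tRNA with serine, overlap by 280 bases of their windows, and both were lower (-0.45 and -0.67). MRPL50 fell with ZNF189 (-0.45), and MRPL49 with FAU (-1.004), which encodes a cytosolic ribosomal protein. MRPL46 and MRPS11 are themselves such a pair, with 181 shared bases and a subunit each, and the pair is counted in both sets of cases. MRPL46 had 1248, 1370.3 and 1280.5 in pU6-2 and 976, 1143 and 972 in D20 and was lower (-0.33, SE 0.115, limma adjusted p = 0.0381), but leaving out any 1 array other than D20 array B ended the call, at -0.29 to -0.36. MRPS11 read 1525.5, 1402 and 1424 in pU6-2 and 1537, 1763 and 1612 in D20, a difference of the other sign that did not pass (0.17, SE 0.104, limma adjusted p = 0.229).

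The choice of probe set mattered for some genes. Of 34 members with further tested probe sets, 17 were called. In 4 of these every other probe set gave the same call, in 7 at least 1 did, and 0 had a probe set called in the opposite direction. MRPS10 was not called on its brightest probe set (-0.16), while another of its probe sets was called higher (0.36). For MRPL19 (-0.09) and MRPS15 (-0.17), also not called on the brightest probe set, another probe set was called lower (-0.93 and -0.35). With all probe sets marked as able to match several transcripts left out, 44 members remained and 16 fell and 2 rose. Over all genes under this rule 19.0% were lower and 22.1% higher.

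The counts moved with the scaling of the arrays. As deposited, 46.8% of all called genes were lower. Centring each array on its median log2 value moved the median of all genes to -0.08, the share to 57.8% and the members to 48 lower and 0 higher. Scaling on the poly-A spike-in controls, whose mean log2 signal was 9.20 to 9.37 in pU6-2 and 9.03 to 9.08 in D20, moved the median of all genes to 0.25, the share to 27.5% and the members to 22 lower and 8 higher. Of all genes, 20.8% were lower and 23.7% higher as deposited, 25.5% and 18.6% after median centring, and 12.5% and 32.8% after spike-in scaling. The median of the members was -0.29, -0.41 and -0.08 under these 3 scalings in turn. Each of them shifts all genes of an array alike, so the members' median lay 0.33 below that of all genes by construction, whereas quantile normalization, which can move this gap, gave -0.26 for the members and a gap of -0.25. Over all 18 alternatives run, 17 of the 39 falls were called in each alternative that held the gene, among them MRPL11, MRPL21, MRPL50, MRPL16, MRPL42, MRPS2, MRPS33, MRPS35 and MRPS28. Neither of the 2 rises was, and 0 of the 39 were called in the opposite direction under any. MRPL11, MRPL16, MRPS33 and MRPS28 have only a marked probe set, so the alternative without marked probe sets did not hold them.

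**Figure D4:**
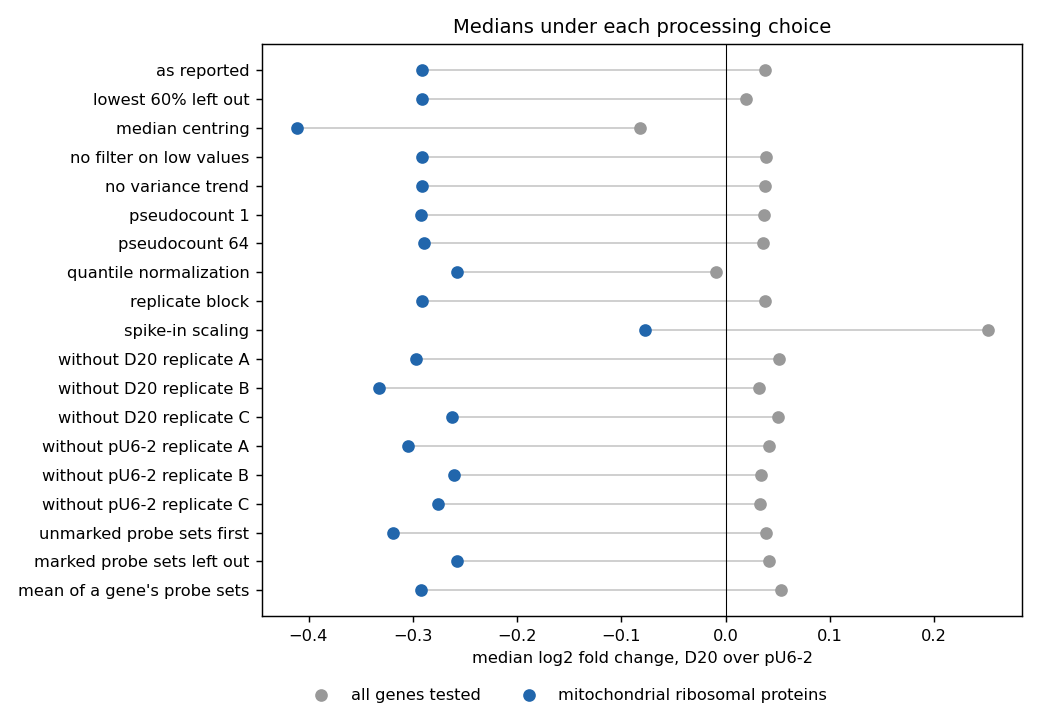
Median log2 fold change of the mitochondrial ribosomal protein genes (blue) and of all genes tested (grey) on the x axis, as reported and under each of 18 alternative processing choices, with a line joining each pair. The blue point lies to the left of the grey one in every case, and both shift with median centring (-0.41 and -0.08) and spike-in scaling (-0.08 and 0.25).

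The rest of the machinery that makes and serves the mitochondrial ribosome was described from fixed lists, with counts beside the background of 20.8% lower and 23.7% higher. Of 4 tested ribosomal proteins whose symbols are not MRPL or MRPS, 2 fell, with a median of -0.31. DAP3, a GTP-binding protein of the small subunit, had 6946, 6345 and 7273 in pU6-2 and 4866, 4695 and 5039.7 in D20 (-0.49, SE 0.0834), separate groups, but its call was lost on its other probe sets. CHCHD1 read 3619, 3531 and 3701 in pU6-2 and 2653, 2613.5 and 2679 in D20 and also fell (-0.45, SE 0.0833), though not after spike-in scaling.

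The 26 assembly factors, which fold and modify the ribosomal RNA and join the proteins to it, were split in direction: 6 fell and 5 rose, with a median of 0.08. METTL15, a methyltransferase of the small-subunit RNA, fell most (-1.44), followed by RCC1L (-0.82) and TFB1M (-0.73), the last of which dimethylates that RNA. The call of RCC1L turned to a value of 0.08 on a probe set not marked as matching several transcripts. RPUSD4 (0.64), RBFA (0.63) and MTERF3 (0.48) rose. The call of TFB1M was lost on an unmarked probe set (-0.37), and that of RBFA without D20 array A (0.54) or with its probe sets averaged (0.44).

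Of 13 mitochondrial translation factors 6 fell and 1 rose, with a median of -0.22. The falls were led by TSFM (-0.76), the exchange factor of the elongation factor TUFM, and MRRF (-0.72), which recycles the ribosome. TACO1 was lower on its brightest probe set (-0.58) and had 0.27 on an unmarked one, and MTRFR, a rescue factor for stalled ribosomes, rose (0.60). The calls of TSFM with its probe sets averaged (-0.36) and of MTRFR without D20 array A (0.50) were lost. The 20 genes that charge mitochondrial tRNAs were split, with 6 lower, 3 higher and a median of -0.09. MARS2, for methionine, had 706, 863 and 807.5 in pU6-2 and 309, 267 and 339 in D20 (-1.33), and GATC, a subunit of the enzyme that forms glutaminyl-tRNA, was as much lower (-1.33). HARS2, for histidine, moved the other way, from 795, 692 and 653.5 in pU6-2 to 1576, 1509 and 1787 in D20 (1.17), as did GARS1 (0.73) and VARS2 (0.35). The call of VARS2 was lost without D20 array A (0.29), without control array A (0.33), without a variance trend and after median centring.

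Among 18 genes that copy, transcribe and process mitochondrial DNA and its RNA, 6 fell and 1 rose, with a median of -0.18. SSBP1, which binds single-stranded mitochondrial DNA, went from 12008.5, 12324 and 11761 in pU6-2 to 5717, 6289 and 6567 in D20 (-0.96), though its call was lost on an unmarked probe set. POLRMT, the mitochondrial RNA polymerase, gave 2458, 2743 and 2661 in pU6-2 and 1628, 1776 and 1324 in D20 (-0.74). Its initiation factor TFB2M was lower as well (-0.71), whereas POLG, the DNA polymerase, was higher (0.51). The call of POLG was lost without control array B (0.43) or C (0.47), after median centring and with its probe sets averaged. Of 9 regulators of mitochondrial gene expression 3 fell and 0 rose, with a median of -0.17. SP1 was lower at 789, 866.5 and 853 in D20 against 2712.5, 2174 and 2748 in pU6-2 (-1.58). ESRRA fell (-0.93), and YY1 was lower on its brightest probe set (-0.37) but 0.02 on an unmarked one. The other 6 did not pass: NRF1 (-0.28), PPRC1 (-0.17), PPARGC1A (-0.004), GABPA (0.09), GABPB1 (0.13) and MYC (0.15).

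Other sets frame these counts. Of 70 nuclear genes for subunits of complexes I, III and IV and ATP synthase, 31 fell (44.3%) and 5 rose, with a median of -0.22. Of 58 genes of the cytosolic ribosome 11 fell, a share of 19.0% near the background, and 0 rose, where 23.7% of all genes did. Their median was -0.07. With each gene centred on its mean, the median of these genes was 0.03, 0.06 and 0.03 on control arrays A, B and C. On D20 arrays A, B and C it was -0.24, 0.09 and 0.04, so only array A lay below the controls. The difference between these groups and the mitochondrial ribosome was not tested.

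**Figure D5:**
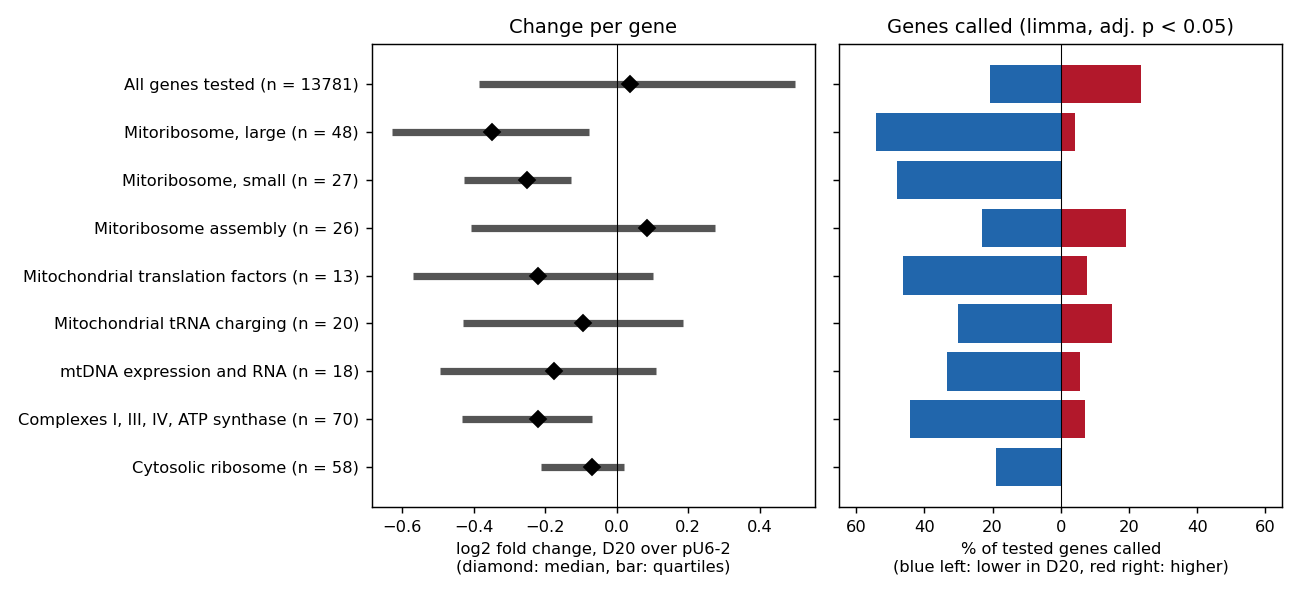
Left, the median (diamond) and quartiles (bar) of the log2 fold change of D20 over pU6-2 for all genes tested and for 8 groups. Right, the percent of each group called lower (blue, to the left) and higher (red, to the right) by limma at the threshold of 0.05. The 2 subunits of the mitochondrial ribosome have 54.2% and 48.1% lower, against 20.8% of all genes and 19.0% of the cytosolic ribosome. The mitochondrial translation factors have 46.2% lower, and the subunits of complexes I, III, IV and ATP synthase 44.3%.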

How the data were processed

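The deposited intensity values are linear MAS5 signals, with 1 value for a probe set on each array, made by the authors, per the submitters' processing notes. Neither version nor scaling target is given in the sources used here. RNA of Hep3B clones was labelled as biotinylated cRNA, per the labels' protocols. Arrays give no read depth, so their number limits the precision.

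Probe sets were named through the platform annotation, with symbols updated by Entrez identifier to RefSeq (GRCh38.p14). Of 54675 probe sets, 41091 had 1 symbol, 1801 had several and 11721 were not listed, besides 62 controls. After log2(signal + 16), the controls and the 40% with the lowest means (signal below 43.2) were left out. The 32768 others were tested two-sided by limma 3.58.1 in R 4.3.3 (lmFit, eBayes with a variance trend) over all 6 arrays with no covariate, which was tested on simulated data.

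Values on every array are given for called members with the largest falls (up to 6) and rises (up to 4) in each subunit, the brightest member of each, and the 2 members placed in the large subunit. From each pathway list up to 3 called genes in each direction are named, and for the regulators also the tested genes that did not pass. MRPL12, MRPL46, MRPS11, MRPS12, the genes of the structural regions and those of the neighbour and probe set paragraphs were chosen after their values were seen. The members and lists were chosen with earlier results of these data known. Alternatives covered the pseudocount, filter, scaling, variance trend, probe set rule, a replicate block and each array left out.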

Additional observations from a re-analysis of the deposited data

How the results depend on the processing

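Counts of genes and medians of log2 differences are given here. Scaling on the spike-in controls gave 22 members lower (17 large, 5 small) and 8 higher (6 large, 2 small), with medians of -0.078 for all members, -0.14 for the large and -0.037 for the small subunit. Of all genes, 12.5% were lower and 32.8% higher under this scaling. Median centring gave 0 members higher, where 18.6% of all genes were, and medians of -0.41, -0.47 and -0.37. Without a variance trend 7 small-subunit genes were lower and 0 members higher, where 15.7% of all genes were lower and 19.2% higher. With marked probe sets left out, 16 members were lower (10 large, 6 small) of 44, where 19.0% of all genes were lower. Without members on chromosomes 9, 11 and 12, an alternative added after the data were seen, 15 large-subunit genes were lower. Leaving out each array in turn gave 32 to 41 members lower and 0 to 3 higher, 24 to 28 large-subunit and 8 to 13 small-subunit genes lower, and medians of -0.33 to -0.26. With these arrays left out in turn, 0 to 3 large-subunit genes were higher. Of all genes, 17.1% to 20.6% were lower and 20.1% to 21.8% higher in the same fits. The labels do not tell whether the letters A, B and C mark anything shared between the clones. In their deviations from the clone means, arrays of the same letter correlated at -0.02, 0.05 and 0.01. Pairs of different letters ran from -0.06 to 0.05. Such values cannot tell whether a day or batch was shared. A fit with the letter as a replicate block gave 40 members lower and 2 higher, where 22.2% of all genes were lower and 24.8% higher. Choosing unmarked probe sets, alone or first, turned RCC1L to 0.079, TACO1 to 0.27 and YY1 to 0.021, and the probe set is the construction of that alternative. Elsewhere the cause was not tested. With 3 arrays of 1 clone a group, further clones are not represented, and whether separate cultures are is not known.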

Other observations

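Members on single chromosomes differed from one another. On chromosome 5 all 4 members fell (MRPL22, MRPL36, MRPS27 and MRPS30), with a median of -0.45, where 17.3% of 601 other genes were lower. On chromosome 6 none of 6 members passed (MRPL2, MRPL14, MRPL18, MRPS10, MRPS18A and MRPS18B), with a median of -0.04, where 17.5% of 742 other genes were lower. On chromosome 17 there were 8 members, of which 1 fell (MRPS23) and 1 rose (MRPL10), where 15.0% of 811 other genes were lower and 25.8% higher, so these counts are near the background. These chromosomes were chosen after their values were seen, and the differences between them were not tested.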
